A study of Arabidopsis thaliana with 5 samples.

Results

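Pectate lyases and pectin acetylesterases are 2 classes of enzymes that act on the pectin of the plant cell wall, and their transcripts were compared between brassinolide-treated and mock-treated root cells of Arabidopsis thaliana. The classes were given as lists of loci, 26 for pectate lyases and 12 for pectin acetylesterases. A locus was used when a probe set of the array named that gene and no other, which held for 23 pectate lyases and 6 pectin acetylesterases, 29 of the 38 loci. The series as a whole has such a probe set for 13286 genes. The platform annotation gives loci and symbols but no enzyme activity, so the class of a gene rests on the list.

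Pectin is rich in homogalacturonan, a chain of galacturonic acid that is secreted with methyl and acetyl esters attached. Pectate lyases cut chains that have lost their methyl esters, by an elimination reaction that needs calcium and leaves an unsaturated sugar at the new end. Pectin acetylesterases remove acetyl groups from the chain, which alters its gelling and its access to other enzymes. Growing root cells remodel pectin as their walls extend. Brassinosteroids, the steroid hormones of plants, are known to act on wall genes, and the receptor-like protein RLP44 links the state of pectin to brassinosteroid signalling.

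The BL group was 2 arrays (replicates 1 and 2) from seedlings that spent 2 h in a liquid medium holding 10 nM of brassinolide (BL), a brassinosteroid of high natural activity. The control group was 3 arrays (replicates 1 to 3) from seedlings kept for 2 h in the same medium with ethanol as mock. All seedlings were 6 days old and carried the same transgene, a nuclear yellow fluorescent protein driven by the promoter of the brassinosteroid receptor gene BRL3. Primary root tips of both groups were digested to protoplasts, fluorescent cells were sorted, and polyA RNA was hybridised to Affymetrix ATH1 arrays. The groups therefore hold whichever cells of the root tip had that promoter active, after wall digestion, and fewer cells of a type cannot be told apart from less RNA per cell. Nothing in the labels ties a replicate to its own batch of seedlings, so a p-value covers array-to-array spread that may be technical.

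Control replicates 2 and 3 stood apart from the other arrays in spike-in signal. The bacterial poly-A spike-in probe sets had 3' medians of 4.44 and 4.68 on the BL arrays, against 4.71, 8.01 and 7.39 on control replicates 1 to 3. Across probe sets, Pearson's r was 0.992 between the BL arrays and 0.969 and 0.974 between them and control replicate 1, and control replicate 2 did not exceed 0.915 with any array. Control replicate 3 was nearer, with 0.951 and 0.952 to the BL arrays and 0.955 to control replicate 1. The BL mean minus control replicate 1 alone is therefore given beside the results. Of 30 marker genes of root and leaf cell types, 8 were measured. None belonged to the root cap, and BRL3 itself was not analysed here, so the sorted domain could not be checked by its own gene. BBM, a stem cell niche gene, had 7.07 and 6.25 with BL against 5.68, 6.30 and 6.25 in controls. The root hair expansin EXPA7 had 4.57 and 4.96 with BL against 4.20, 6.52 and 4.38 in controls, high on control replicate 2. EXPA18, the other root hair gene measured, had 4.87 and 5.54 with BL against 4.35, 6.17 and 4.66 in controls. The mean difference was -0.27 for EXPA7 and 0.14 for EXPA18. PHV, a vascular patterning gene, was the marker whose groups did not overlap, with 7.73 and 7.47 with BL against 8.16, 8.42 and 8.82 in controls. Its difference was -0.87, while OPS, the other vascular gene measured, differed by -0.07. The cortex and endodermis genes AT1G62500 and AT4G28100 differed by -0.0048 and 0.23, and the leaf gene RCA by -0.22. The part of these markers in the results below was not tested.

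**Figure D1:**
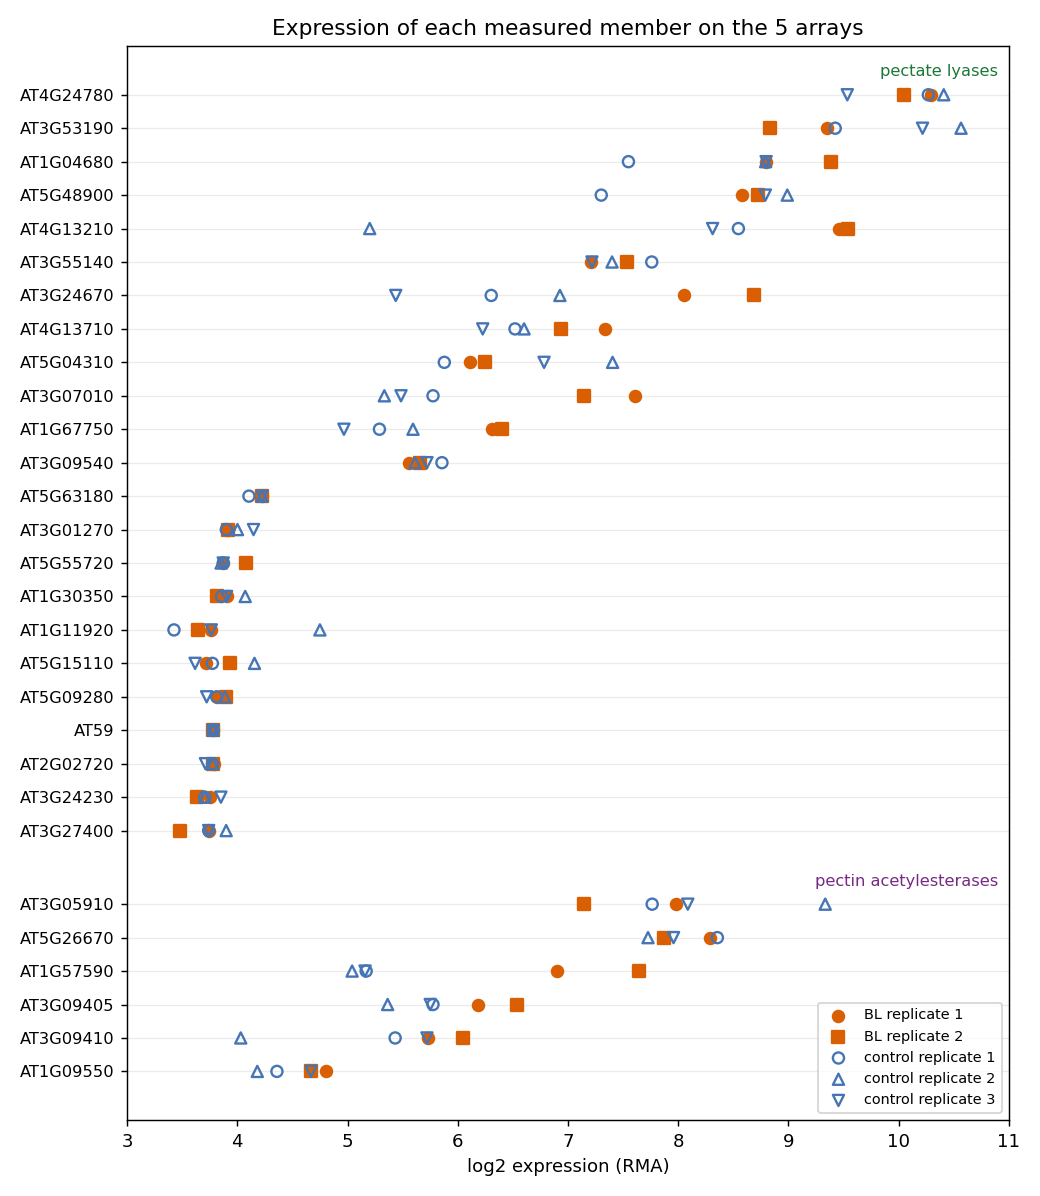
Log2 expression (RMA, x axis) of the 23 pectate lyases and 6 pectin acetylesterases on each array, with filled orange symbols for the 2 BL arrays and open blue symbols for the 3 controls. Values can be compared along a row but not between rows, as probe sets differ in affinity. AT3G07010, AT3G24670 and AT1G57590 have both BL values well to the right of every control, while a block of pectate lyases stays near 4 on all arrays.

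A subset of the pectate lyases and pectin acetylesterases had higher values with BL. Mean differences over 3-fold were measured for the pectate lyases AT3G24670 (4.43-fold), AT4G13210 (4.43-fold, with 1 control array far below the others) and AT3G07010 (3.59-fold) and for the pectin acetylesterase AT1G57590 (4.43-fold). No member passed the test over all probe sets. limma with Benjamini-Hochberg adjustment called 0 of the 23 pectate lyases and 0 of the 6 pectin acetylesterases at an adjusted p under 0.05, beside 0% of the 22746 probe sets in either direction. At an unadjusted p under 0.05, 4 pectate lyases and 2 pectin acetylesterases were higher with BL, beside 4.05% of all probe sets. At that level 0 members of either class were lower, beside 3.06% of all probe sets. The values below are therefore measurements with their spread and not calls.

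Both BL values lay above every control value for 5 of 23 pectate lyases and 3 of 6 pectin acetylesterases, beside 11.4% of all probe sets. Both lay below every control value for 1 pectate lyase and 0 pectin acetylesterases, beside 9.75%. A mean difference of at least 1.5-fold was reached on the higher side by 6 pectate lyases and 3 pectin acetylesterases, beside 8.88% of all probe sets. On the lower side it was reached by 1 gene of each class, beside 8.58%. At least 2-fold was reached by 4 pectate lyases and 1 pectin acetylesterase on the higher side, beside 3.5% of all probe sets, and by 0 of either class on the lower side, beside 3.2%. Against control replicate 1 alone, at least 1.5-fold was reached by 7 pectate lyases and 2 pectin acetylesterases on the higher side, beside 5.91% of all probe sets, and by 0 of either class on the lower side, beside 9.1%. With 2 BL arrays and 3 controls, an exact permutation test of a single gene cannot give a p below 0.1, so overlap or its absence is stated as a description.

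Among the pectate lyases, AT3G07010 had 7.61 and 7.14 on the BL arrays, against 5.78, 5.33 and 5.49 on control replicates 1 to 3. The groups were 1.37 apart at their nearest values, while the controls spanned 0.44. The BL mean was 7.38 ± 0.333 (SD, n = 2), against a control mean of 5.53 ± 0.224 (SD, n = 3). This gave a log2 difference of 1.85 ± 0.22 (SE), with a 95% interval from 1.25 to 2.44, and 1.60 against control replicate 1 alone. It was the pectate lyase with the smallest p, and its limma adjusted p was 0.485 (0.152 to 1 over the alternatives).

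AT3G24670 had 8.05 and 8.69 with BL, against 6.30, 6.93 and 5.44 in controls. Both BL arrays were above all controls by at least 1.12, although the controls themselves spanned 1.49, with control replicate 3 the lowest. Its difference was 2.15 ± 0.52 (SE), and 2.07 against control replicate 1 alone. The limma adjusted p was 0.580.

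AT1G67750 had 6.31 and 6.40 with BL, against 5.29, 5.59 and 4.97 in controls. The BL arrays agreed within 0.10 and lay 0.71 above the highest control. Its difference of 1.07 ± 0.21 (SE) is a fold of 2.10, and it was again 1.07 against control replicate 1 alone. AT4G13710 had 7.33 and 6.93 with BL, against 6.52, 6.60 and 6.23 in controls. Its groups were nearer to each other, 0.33 apart, and its difference was 0.68 ± 0.19 (SE), or 0.61 against control replicate 1. The limma adjusted p values of AT1G67750 and AT4G13710 were 0.565 and 0.629.

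AT4G13210 had 9.46 and 9.54 with BL, against 8.55, 5.20 and 8.31 in controls. All controls lay below BL, but control replicate 2 was far under the others. The mean difference of 2.15 ± 1.18 (SE) had a 95% interval from -1.05 to 5.35, was 1.07 without control replicate 2, and was 0.95 against control replicate 1 alone. The limma adjusted p was 0.771. This gene thus had the same mean difference as AT3G24670 with a larger standard error, and a fold of about 2 remained without that array.

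On the lower side, AT3G53190 had 9.35 and 8.83 with BL, against 9.42, 10.57 and 10.22 in controls. Its groups did not overlap, but BL replicate 1 and control replicate 1 were only 0.07 apart. The difference was -0.98 ± 0.41 (SE) with all controls and -0.33 against control replicate 1 alone, so most of it lay in control replicates 2 and 3. Without control replicate 1 it was -1.30. The limma adjusted p was 0.733.

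AT1G04680 and AT5G48900 showed the opposite dependence, because control replicate 1 was their lowest array. AT1G04680 had 8.80 and 9.39 with BL, against 7.55, 8.79 and 8.80 in controls. Its groups met at BL replicate 1 and control replicate 3, its difference was 0.71 ± 0.50 (SE), and this became 0.30 without control replicate 1 but 1.54 against that array alone. AT5G48900 had 8.58 and 8.72 with BL, against 7.30, 8.99 and 8.79 in controls. Its BL values lay inside the control range, and its difference of 0.29 ± 0.59 (SE) turned to -0.24 without control replicate 1 and was 1.35 against it alone. Restricting the controls to replicate 1 thus moved the differences of AT1G04680, AT5G48900, AT4G13210 and AT3G53190 by more than those of AT3G07010, AT3G24670, AT1G67750 and AT4G13710.

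The other pectate lyases with a clear signal overlapped between groups. AT4G24780, the pectate lyase with the highest mean signal, had 10.29 and 10.05 with BL against 10.27, 10.41 and 9.53 in controls. Its difference of 0.10 had a 95% interval from -0.75 to 0.96. AT3G55140 and AT3G09540 differed by -0.09 and -0.12, with intervals from -0.68 to 0.50 and from -0.43 to 0.19. AT5G04310 had 6.11 and 6.25 with BL, against 5.88, 7.40 and 6.78 in controls, a difference of -0.51 ± 0.49 (SE) that was 0.30 against control replicate 1 alone. A second probe set of AT5G04310 gave a difference of -0.09 at a lower signal, with means of 4.24 with BL and 4.33 in controls.

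The remaining pectate lyases had a low signal. For 10 of the 23, the mean over the 5 arrays lay below 4.20, the lower quartile of such means over all probe sets. Their values ran from 3.43 to 4.75 and their differences from -0.27 to 0.11, with 3 higher, 6 lower and 1 equal. They include AT59, a gene known from pollen and anthers, which had 3.78 on all 5 arrays. The summary of a probe set by median polish gives such equal values when arrays are few. Among the 10, AT1G11920 had 3.76 and 3.65 with BL against 3.43, 4.75 and 3.76 in controls, where control replicate 2 alone stood out. The rest were AT1G30350, AT2G02720, AT3G01270, AT3G24230, AT3G27400, AT5G09280, AT5G15110 and AT5G55720, with differences between -0.18 and 0.11. AT5G63180 lay just above that quartile, at 4.23 on both BL arrays and 4.11, 4.23 and 4.23 on the controls, a difference of 0.04. Signal over background was not analysed, and a small difference there is no measure of transcript change.

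**Figure D2:**
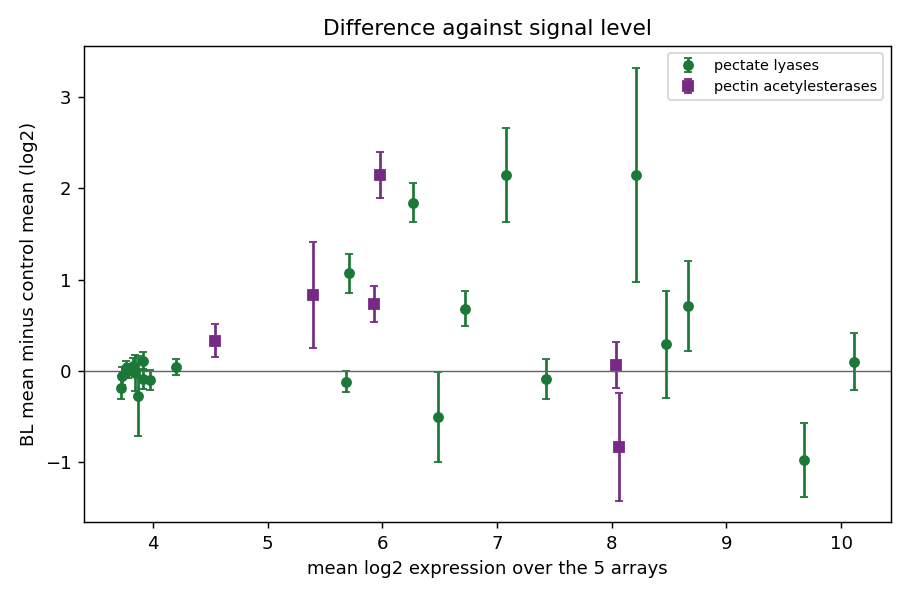
BL mean minus control mean (log2, y axis, bars 1 SE from limma) against the mean log2 expression over the 5 arrays (x axis), 1 point per gene, green circles for pectate lyases and purple squares for pectin acetylesterases. The pectate lyases below 4.20 stay between -0.27 and 0.11, while brighter genes of both classes run from -0.98 to 2.15. The mean on the x axis includes the BL arrays, so higher BL values also move a gene to the right.

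Among the pectin acetylesterases, AT1G57590 had 6.90 and 7.64 with BL, against 5.17, 5.04 and 5.16 in controls. The 3 controls lay within 0.13 of each other and the nearest BL value was 1.73 above them, the widest gap between groups among the 29 genes. The BL mean was 7.27 ± 0.527 (SD, n = 2), against a control mean of 5.12 ± 0.0709 (SD, n = 3). The difference was 2.15 ± 0.25 (SE), with a 95% interval from 1.46 to 2.83. It was 2.10 against control replicate 1 alone and 1.77 to 2.52 with any 1 array left out. Its limma adjusted p was 0.475, the smallest of both classes (0.174 to 1 over the alternatives).

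AT3G09405 and AT3G09410 are neighbours on the chromosome, with no protein-coding gene between them in the RefSeq gene table of assembly TAIR10.1. AT3G09405 had 6.19 and 6.54 with BL, against 5.78, 5.36 and 5.75 in controls. Its groups were 0.41 apart, and the difference of 0.73 ± 0.20 (SE) was 0.59 against control replicate 1 alone. AT3G09410 had 5.73 and 6.05 with BL, against 5.43, 4.03 and 5.72 in controls. Here BL replicate 1 exceeded control replicate 3 by only 0.01, and control replicate 2 was far lower than any other array. Its difference of 0.83 ± 0.58 (SE) became 0.31 without control replicate 2, and 0.46 against control replicate 1 alone. The neighbours thus shared a direction, with separate groups in both, but the difference of AT3G09410 was smaller than the 1.69 its controls spanned. The limma adjusted p was 0.612 for AT3G09405 and 0.789 for AT3G09410.

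AT3G05910 was the pectin acetylesterase with a lower mean, with 7.98 and 7.14 with BL against 7.76, 9.33 and 8.09 in controls. The groups overlapped, control replicate 2 was the highest array, and the difference of -0.83 ± 0.59 (SE) became -0.36 without it and -0.20 against control replicate 1 alone. AT5G26670 had 8.28 and 7.87 with BL, against 8.36, 7.73 and 7.96 in controls. Its groups were mixed, with a difference of 0.07 and a 95% interval from -0.62 to 0.75. AT1G09550 had 4.80 and 4.67 with BL, against 4.36, 4.18 and 4.67 in controls. BL replicate 2 and control replicate 3 met at the same value, and its difference was 0.33 ± 0.18 (SE), or 0.38 against control replicate 1 alone.

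**Figure D3:**
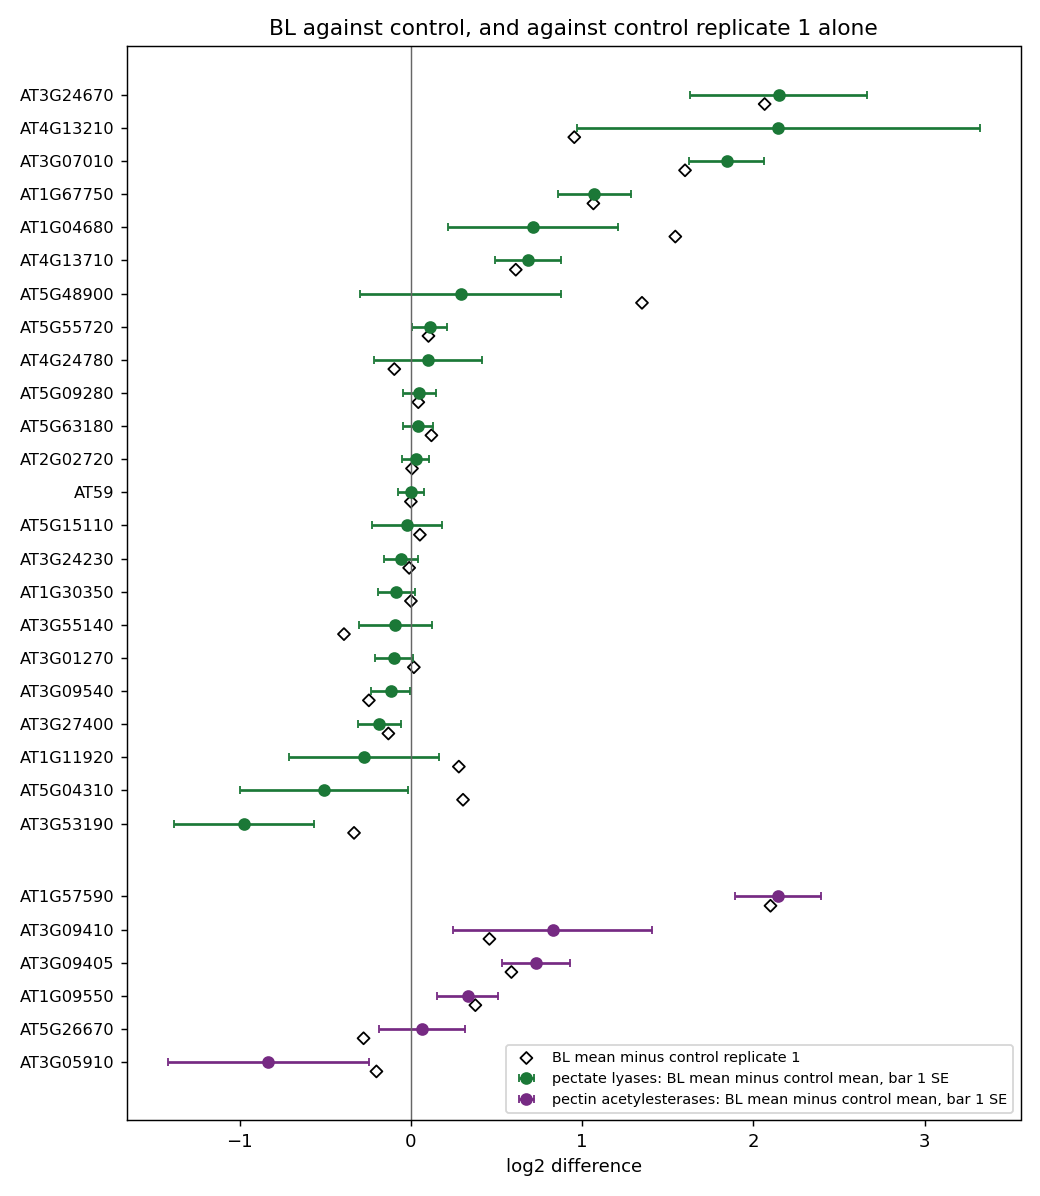
BL mean minus control mean for each gene (log2, x axis), with bars of 1 SE from limma, green for pectate lyases and purple for pectin acetylesterases. Open diamonds give the BL mean minus control replicate 1 alone. The diamonds of AT3G24670, AT3G07010, AT1G67750 and AT1G57590 lie within or near the bars, while those of AT1G04680, AT5G48900 and AT3G53190 lie outside them.

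Set side by side, the pectin acetylesterases had a median difference of 0.53 over 6 genes, with 5 higher and 1 lower, and the pectate lyases 0.03 over 23 genes, with 12 higher, 10 lower and 1 equal. All probe sets had a median of -0.02, with 44.9% higher and 54.5% lower. Against control replicate 1 alone the medians were 0.42 for pectin acetylesterases, 0.05 for pectate lyases and 0.0029 for all probe sets. The pectin acetylesterase median was 0.27 without control replicate 2, the array on which AT3G09410 was low. Against single controls, the median of BL mean minus control over the pectin acetylesterases was 0.42, 0.78 and 0.15 for replicates 1, 2 and 3. For the pectate lyases it was 0.05, -0.01 and 0.07. Within both classes the genes ran from about a 2-fold lower to over a 4-fold higher mean, from -0.83 to 2.15 for pectin acetylesterases and from -0.98 to 2.15 for pectate lyases. No difference between the classes was tested, and the signal of their members differs: no pectin acetylesterase had a mean below 4.20. Over genes with a mean at or above 5.65, the median of such means, 12 pectate lyases had a median difference of 0.49. The 4 pectin acetylesterases above that limit had 0.40, and all probe sets above it 0.04. Those means include the BL arrays. AT3G07010, AT1G67750, AT1G57590 and AT3G09405 had control means of 5.53, 5.28, 5.12 and 5.63, so they passed the limit through their BL values. The medians over this cut therefore cannot compare the classes.

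A total of 9 listed loci were not analysed here. They are the pectate lyases AT4G22090, PMR6, whose loss gives resistance to powdery mildew, and RHS14, named as root hair specific in RefSeq. The others are the pectin acetylesterases AT2G46930, AT3G62060, AT4G19410, AT4G19420, AT5G23870 and AT5G45280. AT4G19410 and AT4G19420, like RHS14 and AT4G22090, are adjacent pairs in the RefSeq gene table.

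Other genes that make, alter or sense pectin were measured for 18 of 77 listed loci, and 0 of them passed limma's adjusted test in either direction. Their median difference was 0.01, with 10 higher, 7 lower and 1 equal. Both BL values lay above all controls for 3 and below for 2, beside the 11.4% and 9.75% given above. Of 20 listed pectin methylesterases and their inhibitors, 6 were measured. AT4G25250 of that list had 4.36 and 6.04 with BL against 3.91, 4.12 and 3.78 in controls, and its difference of 1.26 ± 0.54 (SE) became 0.42 without BL replicate 2. ATPMEPCRB differed by -0.43 and AT1G23200 by 0.19. Of 9 polygalacturonases, which hydrolyse the same chain that pectate lyases cut, 4 were measured. AT1G48100 had 5.21 and 4.76 with BL against 4.32, 4.17 and 4.19 in controls, a difference of 0.76 ± 0.17 (SE). It was the gene of these lists with an unadjusted p under 0.05, and its limma adjusted p was 0.571. ADPG1, a polygalacturonase of organ separation, and AT3G07820 differed by -0.15 and -0.14 at signals below 4.

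Of 7 rhamnogalacturonan lyases, 5 were measured. AT2G22620 had 7.18 and 8.11 with BL against 7.42, 7.14 and 5.28 in controls. These values overlap, and its difference of 1.03 ± 0.79 (SE) was 0.37 without control replicate 3. AT1G09890 and AT4G37950 differed by -0.20 and -0.19. Homogalacturonan synthesis was represented by GAUT15 (0.03), and pectin methylation and sugar supply by AT3G49720 (0.18). FER, a receptor kinase that binds pectin, was the measured gene of the sensing list. It had 8.45 and 8.93 with BL against 8.71, 7.37 and 7.45 in controls, so its difference of 0.85 ± 0.50 (SE) was -0.02 against control replicate 1 alone.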

How the data were processed

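The deposited table holds log2 expression values for 22810 probe sets on 5 ATH1 arrays, made by the authors with RMA (background subtraction, quantile normalization, median polish). The submitters' processing notes list affy 1.70.0, R 4.1.1 and limma 3.48.3. No source gives the log base, which RMA output and values of 2.99 to 14.1 point to as 2. Scanner files were not used here. After 64 control probe sets were set aside, 13513 of 22746 named 1 gene, 503 several and 8730 none in the platform annotation. Names were updated through the RefSeq table of assembly TAIR10.1. AT5G04310 has more than 1 such probe set, and its brightest was used.

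BL was compared with control by limma 3.58.1 in R 4.3.3 (linear model and eBayes with a treatment term on 5 arrays, 3 residual degrees of freedom), and p-values were adjusted by Benjamini-Hochberg over the 22746 probe sets. SE and 95% intervals are limma's moderated ones. In simulated data for this comparison, 50 of 22746 probe sets were changed at each size. The fit recovered 28% of log2 changes of 1 and 54% of 2, with 8 false calls. The simulation gave all 5 arrays noise of the same size within a probe set. Array weights estimated from the real data ran from 0.25 (control replicate 2) to 2.77 (BL replicate 1), so the simulated rates need not hold for them. The members and lists were chosen with earlier results of these data known. All measured members are named. Values on every array are given for members with separate groups or a difference of at least 1.5-fold and for the 2 brightest members of each class. Of each other pectin list, up to 3 genes with the smallest p are named, some by their difference only. AT5G48900, AT5G04310, AT1G11920, AT5G63180 and AT1G09550 are also given by array, chosen after their values were seen. Equal values on 2 or more arrays occurred in 44.7% of probe sets and 12 of the 29 members. The number of arrays limits precision.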

Additional observations from a re-analysis of the deposited data

How the results depend on the processing

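No member passed an adjusted p of 0.05 in any alternative, among them array weights, another normalization, a floor, a filter on dim probe sets, a term for controls 2 and 3, and each array left out. A lone BL array was then assumed to vary like the controls. Likewise, the lone control left without controls 2 and 3 was assumed to vary like the BL arrays. For AT4G13210 the difference in that fit was 0.95, and the 3.34 that its 3 controls spanned did not enter. Of the 29 members, 9 changed sign in at least 1 alternative.

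The pectate lyase median was 0.076 with cyclic loess, 0.49 over the 12 genes above the median level, and 0 to 0.089 with 1 array left out. Over the 4 pectin acetylesterases above the median level the median was 0.40, and over all probe sets above it 0.04. That filter uses the mean of all 5 arrays, BL included. AT3G07010, AT1G67750, AT1G57590 and AT3G09405 had control means of 5.53, 5.28, 5.12 and 5.63. These lie below the limit of 5.65, so the genes passed it through their BL values. The pectin acetylesterase median ran from 0.27 to 0.63 with 1 array left out. At a fold of 2, there were 4 pectate lyases higher and 0 lower, and 1 pectin acetylesterase higher and 0 lower. Pectate lyases with BL above all controls were 5 to 8 with 1 array left out and 11 without controls 2 and 3. With quantile normalization or cyclic loess they were 6. Those with BL below were 2 with quantile normalization, 1 to 4 with 1 array left out and 3 without controls 2 and 3. Pectin acetylesterases with BL above were 3 to 4 with 1 array left out and 4 with quantile normalization or cyclic loess. Those with BL below were 0 to 1 with 1 array left out and 1 without controls 2 and 3. Fewer arrays make separation more frequent by construction.

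The term for controls 2 and 3 and leaving these arrays out both give the BL mean minus control replicate 1. Their differences are therefore equal by construction. The difference turned to 0.28 for AT1G11920, 0.00019 for AT1G30350, 0.017 for AT3G01270, 0.30 for AT5G04310, 0.053 for AT5G15110, -0.097 for AT4G24780, -0.28 for AT5G26670, 0.014 for AT3G07820, 0.17 for AT4G37950 and -0.022 for FER. Array weights turned AT3G55140 to 0.011, AT5G15110 to 0.11 and GAUT15 to -0.040. AT5G15110 was 0.024 with cyclic loess and 0.021 with quantile normalization. With 1 array left out, both signs arose for AT1G11920 (-0.55 to 0.11), AT3G55140 (-0.25 to 0.074), AT4G24780 (-0.17 to 0.27), AT5G15110 (-0.14 to 0.13), AT5G48900 (-0.24 to 0.61), AT5G26670 (-0.14 to 0.27), GAUT15 (-0.049 to 0.10), AT3G07820 (-0.22 to 0.0072) and AT4G37950 (-0.48 to 0.10). The cause was not tested.

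Arrays of the same number deviated from their group means with a correlation of -0.060 (replicates 1) and 0.037 (replicates 2), which does not show pairing. The deviations of the 2 BL arrays are equal and opposite by construction, so these are not separate checks and cannot exclude pairing. With the replicate block 0 members were called and AT4G24780 turned to -0.17. Its pectin acetylesterase median was 0.63. Background correction could not be varied without scanner files, and how far signals lie over background was not analysed.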
